A study of Homo sapiens with 2 samples.

Results

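ID1, ID2, ID3, ID4, HEY1, BAMBI, SMAD6, SMAD7, SMAD9 and TGFBI are 10 genes that TGF-beta or bone morphogenetic protein (BMP) signals can induce, not all of them by both. They were examined in CL1-5 cells exposed for 24 h to 0.11 µM analogue 3, against CL1-5 cells exposed for 24 h to the solvent DMSO. Analogue 3 is a synthetic relative of the plant product desmosdumotin C with iodo, tripropyl and methoxy groups, and its dose was the ED50 that the submitters give for these cells. CL1-5 is an invasive human lung adenocarcinoma line, and both cultures were kept in medium with fetal bovine serum. There was 1 Affymetrix U133 Plus 2.0 array per culture, so no difference has a replicate check or a p-value. The genes were chosen by name with the difference between these 2 arrays known, so their differences are a description. All probe sets whose annotation gives 1 of these symbols and no other were taken, which were 20 of 54675 probe sets, for 10 of 19775 named genes.

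TGF-beta and BMP ligands bind pairs of type I and type II serine/threonine kinase receptors, which phosphorylate SMAD proteins that enter the nucleus with SMAD4. BMP receptors act through SMAD1, SMAD5 and SMAD9, and the ID genes are among the classic direct targets of that branch. ID proteins have a helix-loop-helix domain but no DNA-binding region, so they pair with E proteins and keep them from DNA; they are high in many dividing cells. SMAD6, SMAD7 and BAMBI are induced by the pathway and inhibit it in turn.

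Of the 10 genes, 3 were higher with analogue 3 by at least 2-fold (ID3, ID1 and TGFBI) and none was lower by that much. Intensities are multiples of the array median, and values under 8 (log2 3) were raised to 8 before a fold was taken. A gene counts as measured when at least 1 array reached this floor, and a fold against an array under the floor is a lower bound, written "at least". On these terms 7 genes were measured, 4 of them on both arrays, and ID4, SMAD6 and SMAD7 were under the floor on both. The median log2 difference, analogue 3 minus DMSO, was 0.67 over the 7 measured genes, bounds included, and 1.51 over the 4 genes on both arrays. Over all 8523 measured genes the median was -0.05, with 3.74% at least 2-fold higher and 3.92% at least 2-fold lower. Nothing is read from the members' count against these shares, because the genes were chosen on this contrast. A change in the number of cells of one kind and a change in RNA per cell cannot be told apart in RNA from whole cultures.

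**Figure D1:**
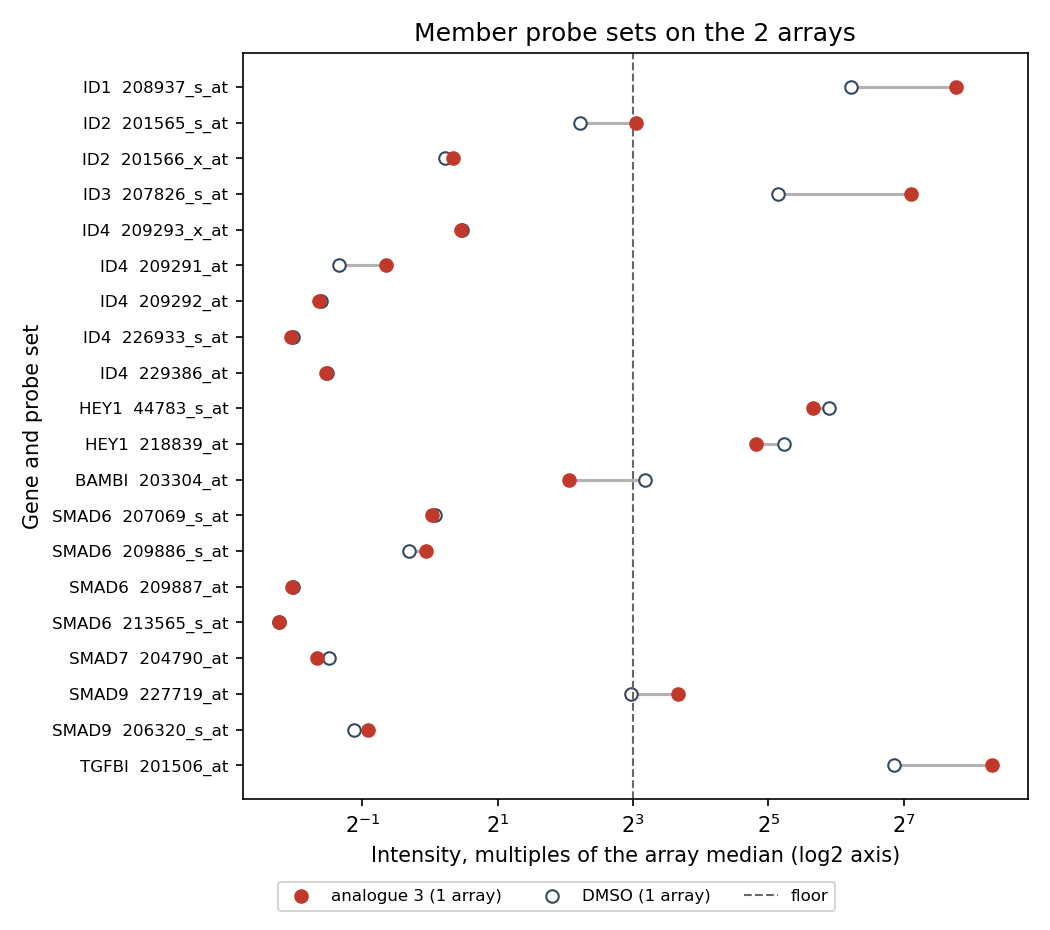
Intensity of each of the 20 probe sets (rows, with gene and probe set name) in multiples of the array median on a log2 axis, on the analogue 3 array (filled points) and the DMSO array (open points), with a dashed line at the floor of 8. ID1, ID3 and TGFBI lie to the right of the floor on both arrays with the analogue 3 point further right, and 12 probe sets lie under 2 on both arrays.

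The 2 arrays held little sign of other cell types. Of 6 epithelial carcinoma markers, 2 were measured, both keratin genes. KRT18 was at 457.9 with analogue 3 and 460.8 with DMSO, and KRT8 at 77.8 with analogue 3 and 42.3 with DMSO. Neither of the other keratin genes reached 8. KRT7 was at 2.646 with analogue 3 and 1.923 with DMSO, and KRT19 at 5.232 with analogue 3 and 2.235 with DMSO. The epithelial adhesion genes EPCAM and CDH1 were under 1 on both arrays. Of 4 mesenchymal markers, 2 were measured. The filament gene VIM was at 1868 with analogue 3 and 1883 with DMSO, and ZEB1 at 81.95 with analogue 3 and 91.24 with DMSO. The mesenchymal markers CDH2 and ZEB2 stayed below 8 with analogue 3 and with DMSO. All 7 lung epithelial markers, NKX2-1 and SFTPB among them, were under the floor on both arrays, so defining transcripts of differentiated lung epithelium were not found at this floor. All 6 fibroblast markers and the 4 leukocyte markers with a probe set were under it too. Summed over the brightest probe set of each gene, the fibroblast markers reached 8.81 with analogue 3 and 6.92 with DMSO, and the leukocyte markers 2.55 with analogue 3 and 3.07 with DMSO. Of 5 endothelial markers PECAM1 was measured, at 15.7 with analogue 3 and 11.4 with DMSO. The control probe sets gave 3′ over 5′ ratios for GAPDH of 1.18 with analogue 3 and 1.21 with DMSO, and for ACTB of 10.0 with analogue 3 and 11.8 with DMSO. The ACTB signal was thus far lower at the 5′ end than at the 3′ end on both arrays, and the cause was not tested. Different probe sets of a gene give the one technical error that 2 arrays can show: over 2874 genes with at least 2 probe sets that reached the floor on both arrays, the SD of the log2 difference of 1 probe set was 0.23. Error from the culture, the RNA and the hybridisation is not part of that spread.

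ID3 had the largest difference of the family. Its probe set 207826_s_at had an intensity of 138.1 with analogue 3 and 35.4 with DMSO. The fold was 3.90, which is 1.97 on the log2 scale. This log2 difference is 8.63 times the SD between probe sets. Among the 7737 genes that reached the floor on both arrays it was the 16th highest difference, within the top 0.207%. ID3 is expressed in many dividing progenitor and tumour cells and restrains E protein targets such as CDK inhibitor genes. The genes nearest to ID3 by the log2 values of both arrays were DLGAP5, RAD51AP1 and BUB1, at distances between 0.07 and 0.26 on the log2 scale. The spindle protein gene DLGAP5 was at 132.6 with analogue 3 and 36.5 with DMSO. The recombination factor gene RAD51AP1 was at 121.3 with analogue 3 and 39.6 with DMSO, and the checkpoint kinase gene BUB1 at 148.5 with analogue 3 and 41.9 with DMSO. Likeness over 2 arrays is a weak description.

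ID1, the member most often used as a BMP readout, was higher too. Its probe set 208937_s_at was at 219.4 with analogue 3 and 74.35 with DMSO, which is 2.95-fold higher or 1.56 on the log2 scale. It ranked 68th highest among genes on both arrays, within the top 0.879%. ID1 and ID3 are each represented by 1 probe set, of the _s_at kind whose probes can match several transcripts, so neither difference has a second probe set beside it.

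ID2 was close to the floor. Its brighter probe set 201565_s_at was at 8.29 with analogue 3 and 4.66 with DMSO, which gives a bound of at least 1.04-fold higher, against a log2 difference of 0.83 without the floor. The other, 201566_x_at, was at 1.27 with analogue 3 and 1.17 with DMSO. A further probe set annotated to both ID2 and ID2B was at 0.391 with analogue 3 and 0.286 with DMSO and was not counted. ID4 was not measured by any of its 5 probe sets, which lay between 0.241 and 1.37 with analogue 3 and between 0.246 and 1.39 with DMSO. Of those 5, 209291_at had the largest log2 difference, 0.70, at 0.638 with analogue 3 and 0.393 with DMSO, both below the array median. The 2 ID genes well above the floor were therefore both more than 2-fold higher, and the other 2 gave no usable fold.

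The SMAD genes among the members were faint. SMAD9, the BMP-branch SMAD that BMP signals also induce, was at 12.7 with analogue 3 and 7.86 with DMSO in probe set 227719_at, at least 1.59-fold higher. Without the floor its log2 difference was 0.69. Its other probe set was at 0.528 with analogue 3 and 0.459 with DMSO. The inhibitory SMAD7, which blocks type I receptors of both branches, was at 0.314 with analogue 3 and 0.354 with DMSO in its 1 probe set. SMAD6, which acts mainly on the BMP branch, had 4 probe sets, the brightest at 1.02 with analogue 3 and 1.05 with DMSO and the others between 0.212 and 0.958 with analogue 3 and between 0.212 and 0.803 with DMSO. No fold can be given for SMAD6 or SMAD7, since both arrays lay under the floor.

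BAMBI, a pseudoreceptor that resembles a type I receptor but lacks its kinase, had a difference of opposite sign. It was at 4.15 with analogue 3 and 9.09 with DMSO, so that it passed the floor on the DMSO array by a small margin. The bound was at least 1.14-fold lower, and the log2 difference without the floor was -1.13. BAMBI thus counts as at least 2-fold lower with a floor of 2, as do 5.25% of genes measured on those terms, or with no floor, as do 3.66%.

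HEY1, a helix-loop-helix repressor induced by Notch and in some cells by BMP signals, differed little. Probe set 44783_s_at was at 50.4 with analogue 3 and 59.3 with DMSO, a log2 difference of -0.23, which is 1.03 times the SD between probe sets. Probe set 218839_at was at 28.3 with analogue 3 and 37.7 with DMSO, a log2 difference of -0.41. HEY1 was the only member with more than 1 probe set that reached the floor on both arrays, and both had the same sign.

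TGFBI encodes a secreted matrix protein that binds collagens and integrins and is named for its induction by TGF-beta. Its 1 probe set, 201506_at, was at 315.6 with analogue 3 and 115.5 with DMSO, so that its log2 difference was 1.45, or 2.73-fold. It ranked 98th highest among genes on both arrays, within the top 1.27%. Among the members that reach the floor on both arrays, ID3, ID1 and TGFBI thus lie within the top 1.27% of differences and HEY1 lies below 0.

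**Figure D2:**
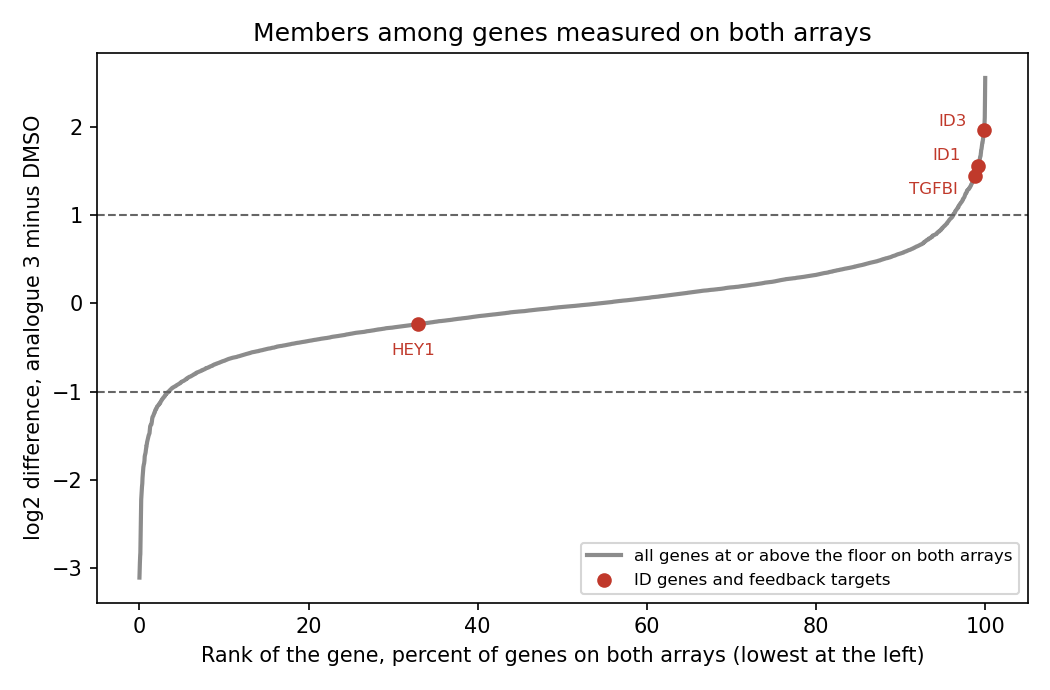
Log2 difference, analogue 3 minus DMSO (vertical axis), of the 7737 genes that reached the floor on both arrays, ordered by rank as a percent of these genes (horizontal axis; grey line), with the 4 members among them as points and dashed lines at 2-fold. ID3, ID1 and TGFBI lie at the upper end of the curve at 1.97, 1.56 and 1.45, and HEY1 lies at -0.23.

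The promoters of ID1, ID3 and TGFBI are printed because these genes differed together. They run from 250 bases before to 50 bases after the gene start in RefSeq (GRCh38.p14) and are written 5′ to 3′ along the gene's strand. Of the 10 genes, 9 matched the promoter table; HEY1 did not. Capitals mark GTCT on either strand (read as AGAC on the other), the core that SMAD proteins can bind, and GGCGCC, a GC-rich element bound by BMP-branch SMADs.
ID1 (chr20:31605039-31605338, plus strand): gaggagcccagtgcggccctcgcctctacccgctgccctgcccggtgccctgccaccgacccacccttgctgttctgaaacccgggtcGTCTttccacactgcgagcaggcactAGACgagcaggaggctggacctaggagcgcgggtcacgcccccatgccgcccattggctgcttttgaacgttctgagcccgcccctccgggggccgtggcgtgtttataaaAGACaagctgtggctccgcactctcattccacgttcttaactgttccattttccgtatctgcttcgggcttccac
ID3 (chr1:23559452-23559751, minus strand): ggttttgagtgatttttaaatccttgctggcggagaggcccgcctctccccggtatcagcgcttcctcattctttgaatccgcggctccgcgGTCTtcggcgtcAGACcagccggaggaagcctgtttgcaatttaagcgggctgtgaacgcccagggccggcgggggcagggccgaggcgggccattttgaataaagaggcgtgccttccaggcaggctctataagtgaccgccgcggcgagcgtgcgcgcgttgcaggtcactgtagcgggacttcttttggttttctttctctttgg
TGFBI (chr5:136028738-136029037, plus strand): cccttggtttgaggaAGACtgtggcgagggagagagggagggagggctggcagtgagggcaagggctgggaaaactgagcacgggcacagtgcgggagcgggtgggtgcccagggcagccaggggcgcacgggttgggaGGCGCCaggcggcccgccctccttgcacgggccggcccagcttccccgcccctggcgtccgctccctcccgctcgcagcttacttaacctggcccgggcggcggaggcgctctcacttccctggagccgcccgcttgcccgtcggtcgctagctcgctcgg
The ID1 window held GTCT at 3 places, the ID3 window at 2 and the TGFBI window at 1. At least 1 GTCT occurred in 84.0% of the 35116 promoters of this length, so its presence sets no promoter apart. GGCGCC occurred once in TGFBI and 3 times in BAMBI, in none of the printed ID windows, and in 19.2% of all promoters. Bases more than 250 before the gene start were not searched, so an absence holds for the window alone. The E-box letters CANNTG, which E proteins bind, were not in the 3 printed windows and were in 68.7% of all promoters. TGACG, the core of the cyclic AMP response element, occurred once in ID3 and in 24.6% of all promoters, and TATAAA occurred in ID1 on both strands of 1 overlapping stretch and in 11.5% of all promoters. All 5 motifs were searched on both strands. The G and C content was 62.7% in ID1, 59.7% in ID3 and 72.7% in TGFBI, against a median of 58.7%. A match describes these letters and is not a site shown to be used.

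At the floor of 8, no other gene examined in the pathway was at least 2-fold higher. Beside the members, 116 genes in 10 lists (ligands, receptors, SMADs, inhibitors, other induced genes, E proteins and Notch genes) were examined, of which 109 had a single-gene probe set and 53 were measured. The share at least 2-fold higher was 0% against 3.74% of all measured genes, and 4 (7.55%) were at least 2-fold lower, against 3.92%. Those 4 were the receptor genes ACVR1 and BMPR2, the co-repressor gene SKIL and the stress gene GADD45B. The median log2 difference of the 53 was -0.17. The 0 depends on the floor. NOG, the gene of the BMP antagonist noggin, was at 4.66 with analogue 3 and 2.21 with DMSO, a log2 difference of 1.08, and counts as higher with a floor of 2, as do 3.76% of genes measured on those terms, or with no floor, as do 2.4%. THBS1, whose product activates latent TGF-beta, was at 2.37 with analogue 3 and 0.958 with DMSO, a log2 difference of 1.30, and counts as higher with no floor. The Notch ligand gene DLL1 was at 2.19 with analogue 3 and 5.21 with DMSO, a log2 difference of -1.25, and counts as lower with a floor of 2 or none.

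Most ligand transcripts were under the floor. None of the 11 BMP ligand genes on the array was measured, and the brightest, BMP8B, was at 7.06 with analogue 3 and 6.79 with DMSO. Of 9 TGF-beta and activin ligand genes, 2 were measured. TGFB1 was at 13.6 with analogue 3 and 13.8 with DMSO, and INHBC, an inhibin beta subunit gene, was at 38.2 with analogue 3 and 23.3 with DMSO, a log2 difference of 0.71.

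Of 9 measured receptor genes, 2 were at least 2-fold lower, against 3.92% of all measured genes, and none was at least 2-fold higher. A total of 7 had a difference below 0, as did 55.5% of all measured genes, and the median log2 difference was -0.37. ACVR1, a type I receptor that BMPs use, was at 55.3 with analogue 3 and 115.4 with DMSO in its 1 probe set. The log2 difference of ACVR1 was -1.06. BMPR2, the main BMP type II receptor, was at 20.9 with analogue 3 and 44.5 with DMSO in its brightest probe set, a log2 difference of -1.09. Its next probe set differed by -0.98, and another, at 7.89 with analogue 3 and 9.14 with DMSO, by -0.21. ACVR1 and BMPR2 thus passed the 2-fold threshold by less than the SD between probe sets, 0.23. TGFBR1, the TGF-beta type I receptor, was at 58.5 with analogue 3 and 51.9 with DMSO. ACVR1B, an activin type I receptor, was at 43.7 with analogue 3 and 62.7 with DMSO. The receptor median stayed below 0 under all 9 processing settings, between -0.50 and -0.27. The settings change which genes of this and the other lists are measured. The receptor median rests on 2 genes when probe sets are combined by their median and on 14 genes with no floor.

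The 5 signal-transducing SMADs outside the members were all measured and all differed by less than 2-fold. Their median log2 difference was -0.01, and it ran from -0.18 to 0.09 over the settings, changing sign. SMAD5, of the BMP branch, was at 103.6 with analogue 3 and 84.8 with DMSO, and its 5 probe sets had log2 differences between 0.22 and 0.54. SMAD1, also of the BMP branch, differed by 0.04 in its brightest probe set and by -0.26 in the other. SMAD3, of the TGF-beta branch, differed by -0.06 and 0.44.

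Secreted inhibitors and latency proteins had a median log2 difference of 0.07 over 8 measured genes, which ran from -0.01 to 0.28 over the settings and so changed sign. GREM1, a BMP-binding antagonist, was at 26.6 with analogue 3 and 17.3 with DMSO, with log2 differences of 0.62 and 0.72 in its probe sets. TWSG1, a BMP modulator, was at 136.7 with analogue 3 and 121.9 with DMSO, and the antagonist gene NBL1 at 25.4 with analogue 3 and 20.95 with DMSO.

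Of 10 measured intracellular regulators of SMADs, 1 was at least 2-fold lower, against 3.92% of all measured genes. The median log2 difference of the 10 was -0.15, with a range of -0.46 to 0.01 over the settings that crosses 0. SKIL encodes the co-repressor SnoN, which TGF-beta signals induce. It was at 5.13 with analogue 3 and 18.6 with DMSO in its brightest probe set, at least 2.33-fold lower. Its other probe sets were all under 1 on both arrays. The ubiquitin ligase gene SMURF2 was at 320.8 with analogue 3 and 319.4 with DMSO, which is close to equal. The co-repressor gene TGIF1 was at 71.5 with analogue 3 and 97.1 with DMSO. STRAP, a receptor-associated inhibitor gene, was at 537.6 with analogue 3 and 432.4 with DMSO. In NEDD4L, a ubiquitin ligase gene singled out after its values were seen, probe sets disagreed: the brightest differed by 0.02 on the log2 scale and 2 others by -0.94 and -1.04. NEDD4L counts as at least 2-fold lower without _s_at and _x_at probe sets.

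Of 6 other TGF-beta-induced genes that were measured, 1 was at least 2-fold lower, against 3.92% of all measured genes. None was at least 2-fold higher, against 3.74% of all measured genes. The log2 difference was below 0 in 5 of the 6, as in 55.5% of all measured genes, with a median of -0.52 that lay between -0.56 and -0.23 over the settings. GADD45B, a growth arrest gene that TGF-beta and stress signals induce, was at 10.3 with analogue 3 and 27.8 with DMSO, which is -1.43 on the log2 scale, while the other probe set that reached the floor on both arrays differed by -1.10. COL4A1, a basement membrane collagen gene, was at 117.9 with analogue 3 and 170.8 with DMSO. The helix-loop-helix factor gene BHLHE40 was lower by less than 2-fold, at 174.7 with analogue 3 and 247.5 with DMSO. The tropomyosin gene TPM1 was at 75.4 with analogue 3 and 88.1 with DMSO. SNAI2 was the measured gene of this list above 0, at 95.8 with analogue 3 and 68.3 with DMSO. CCN2, a standard TGF-beta target, was under the floor at 3.27 with analogue 3 and 5.80 with DMSO. TGFBI and the measured genes of this list therefore had differences of opposite sign, apart from SNAI2. Of 7 other BMP-induced genes 1 was measured, the homeobox gene MSX1, at 212.2 with analogue 3 and 351 with DMSO, a log2 difference of -0.73. Over the settings the MSX1 difference ran from -0.77 to -0.38, and with no floor, which counts all 7 genes, the list median was 0.00187.

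**Figure D3:**
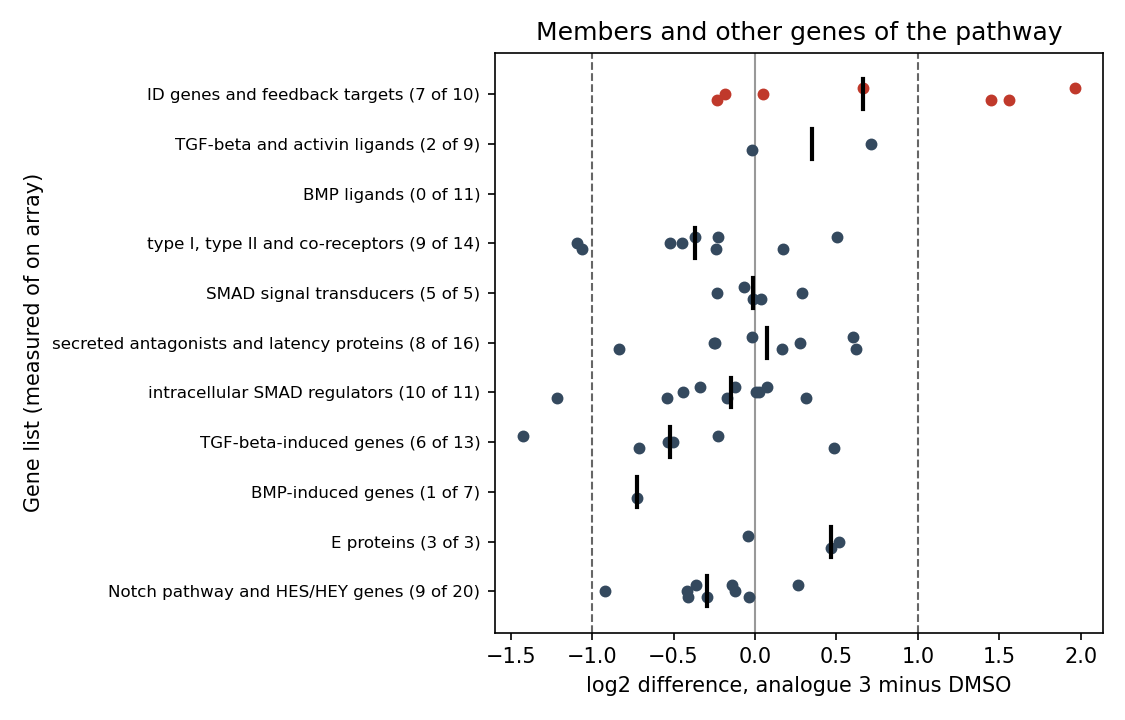
Log2 difference, analogue 3 minus DMSO (horizontal axis), of each measured gene (points) in the member list (top row) and the 10 pathway lists (rows, with the number measured of those on the array), with values under the floor raised to it, the list median as a black bar and dashed lines at 2-fold. Points above 2-fold occur in the member list alone, and 4 points of the receptor, regulator and TGF-beta-induced rows lie below -1. The members were chosen on this contrast, so nothing is read from their row against the other rows.

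E proteins, the partners that ID proteins sequester, were all measured. TCF3 was at 76.6 with analogue 3 and 55.3 with DMSO, and its 5 probe sets had log2 differences between 0.28 and 0.53. TCF4 was at 13.3 with analogue 3 and 9.30 with DMSO, and its log2 difference was 0.52, beside 0.33 in a further probe set. TCF12 was at 29.1 with analogue 3 and 29.9 with DMSO. None of these differences reached 2-fold.

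Of 9 measured Notch pathway genes, none differed by 2-fold. Of all measured genes 3.74% were at least 2-fold higher and 3.92% at least 2-fold lower. The log2 difference was below 0 in 8 of the 9 Notch pathway genes, as in 55.5% of all measured genes, and its median was -0.29. That median lay between -0.30 and -0.08 over the settings. The ligand gene JAG1 was at 792.4 with analogue 3 and 1059 with DMSO, and its 4 probe sets had log2 differences between -0.57 and -0.17. The receptor gene NOTCH2 was at 169.1 with analogue 3 and 207.3 with DMSO. The transcription factor gene RBPJ, through which all Notch receptors signal, was at 123.5 with analogue 3 and 126.6 with DMSO.

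**Figure D4:**
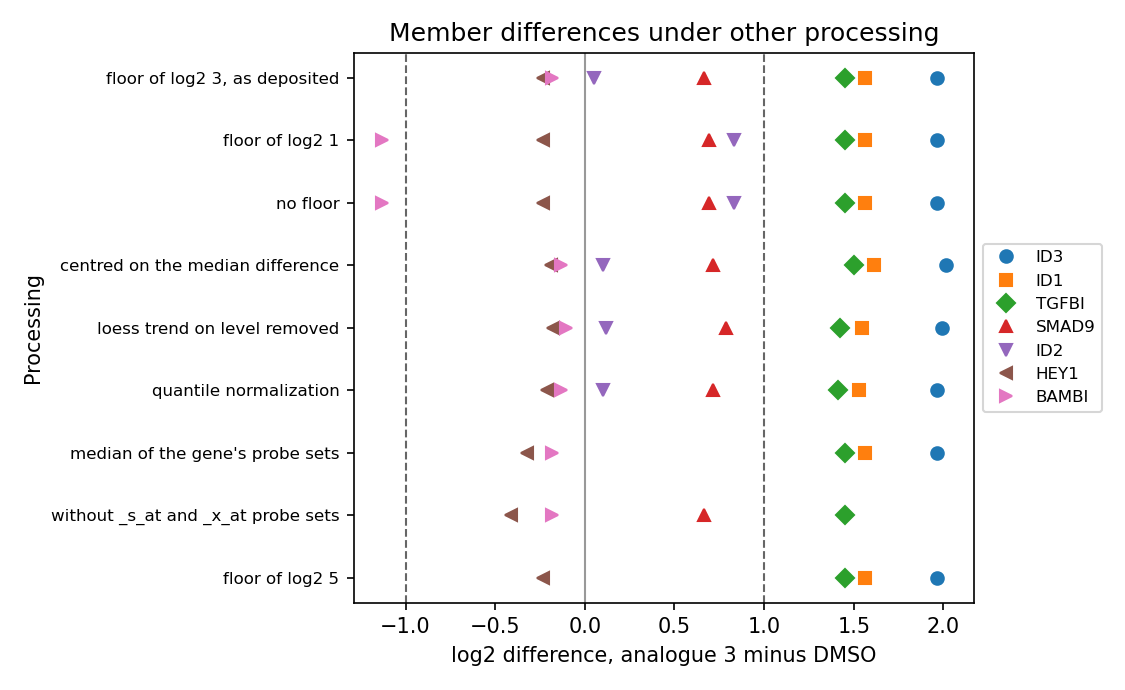
Log2 difference, analogue 3 minus DMSO (horizontal axis), of the 7 measured members (symbols) under each processing setting (rows; the reported one on top), with dashed lines at 2-fold; a member not measured under a setting has no symbol. ID3, ID1 and TGFBI lie above 2-fold wherever they have a symbol, ID1 and ID3 have none without _s_at and _x_at probe sets, and BAMBI lies below -1 with a floor of log2 1 or none.

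The differences of ID1, ID3 and TGFBI depended little on scaling. Over the settings that kept their probe sets, the log2 difference lay between 1.97 and 2.01 for ID3, between 1.53 and 1.61 for ID1 and between 1.41 and 1.499 for TGFBI. Those of ID2 and BAMBI were set by the floor, and ran from 0.05 to 0.83 for ID2 and from -1.13 to -0.10 for BAMBI. At a threshold of 1.5-fold SMAD9 joined ID3, ID1 and TGFBI as higher, where 9.62% of all measured genes were. At a threshold of 3-fold ID3 alone counted as higher, as did 0.845% of all measured genes. Without _s_at and _x_at probe sets TGFBI alone did at 2-fold, as did 3.81% of genes measured on those terms, because ID1 and ID3 then have no probe set. SMAD9 lay between 0.67 and 0.78 and HEY1 between -0.41 and -0.18.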

How the data were processed

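Total RNA of 2 CL1-5 cultures was hybridised to 1 array each, per the labels' protocols. The authors deposited 1 linear intensity per probe set; GCRMA is named, per the submitters' processing notes, and its version is not given in the sources used here. Each column had a median of 1, which was read as a further division that no label states. Gene names came from the platform annotation in GEO, in which 41097 carried 1 symbol, 1801 several and 11777 were unlisted; 41043 of the 41097 matched RefSeq by gene number. Where several single-gene probe sets existed, the brightest by mean log2 intensity stood for the gene. Values were log2-transformed, raised to a floor of log2 3 for folds, and subtracted (analogue 3 minus DMSO). With analogue 3, 26.0% of probe sets reached the floor, and with DMSO 26.8% did. The number of arrays limits the precision.

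The members, lists and floor were chosen with earlier results of these data known. The pathway genes named are those at least 2-fold different and up to 3 of highest level per list; SNAI2, BMP8B, CCN2, NEDD4L, NOG, THBS1 and DLL1 were chosen after their values were seen. Alternatives were other floors, thresholds, scalings (loess span 0.3) and probe set rules. Python 3.11.15, pandas 2.3.3 and statsmodels 0.14.6 were used.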

Additional observations from a re-analysis of the deposited data

How the results depend on the processing

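The count of members at least 2-fold higher was 3 under the other floors, the 3 scalings and the median of probe sets. Under these settings between 2.4% and 4.32% of all measured genes were at least 2-fold higher. At a threshold of 1.5-fold 4 members were higher, as were 9.62% of all measured genes. ID1, ID3 and TGFBI each have 1 probe set, which lay above every floor on both arrays. The floors and the median of probe sets therefore could not change their differences, and only the scalings could. The count was 1 without _s_at and _x_at probe sets, which leaves out ID1 and ID3, against 3.81% of measured genes. It was also 1 at a threshold of 3-fold, which ID3 alone passed, against 0.845% of measured genes. The count of members at least 2-fold lower was 1, BAMBI, with a floor of log2 1 and with no floor, and 0 otherwise. Of all measured genes 5.25% were that much lower with a floor of log2 1 and 3.66% with no floor. The median log2 difference over the measured members was 1.51 with a floor of log2 5 (4 members), 0.34 with no floor (10 members), 1.45 when probe sets were combined by their median (5 members) and 0.24 without _s_at and _x_at probe sets (4 members); these settings change which members are measured. No member at least 2-fold different changed sign. BMPR2 lost its 2-fold difference in 2 of the 8 settings that measured it and GADD45B in 1 of 7. ACVR1 kept its own in all 9 and SKIL in all 7, the reported setting included. ACVR1 has 1 probe set, above every floor on both arrays, so only the scalings could change its difference. Under these it was between 2.02-fold and 2.10-fold lower, close to the threshold. Gained were NOG higher and DLL1 lower with a floor of log2 1 or none, THBS1 higher with no floor, and NEDD4L lower without _s_at and _x_at probe sets. No paired analysis was possible because each group has 1 array. With 1 array per group no replicate could be left out, and values near the floor of 8 give bounds only.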
